A study of Arabidopsis thaliana with 7 samples.

Results

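Transcription factor genes, without those described by words for hormone response, were traced through 6 lists of genes near open chromatin peaks in *Arabidopsis thaliana*. A gene was taken as a member where the first phrase of its description in the lists held 1 of 13 keywords (transcription factor, myb, WRKY, NAC domain, homeobox, zinc finger other than RING, bHLH, helix-loop-helix, bZIP, leucine zipper, MADS, AGAMOUS-like or GATA) and none of 8 words for hormone response, kinases or ubiquitin. The rule gave 101 members among 2600 listed genes, of 27444 nuclear protein-coding genes. It read only descriptions, so a gene was chosen for its wording and for being in at least 1 list, not for how many lists held it.

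The assay was FAIRE-seq, the formaldehyde-assisted isolation of regulatory elements, in which DNA free of crosslinked protein is recovered and sequenced, so that peaks mark accessible chromatin. The libraries came from whole rosettes at 14 days, on MS medium at 24 °C with 12 h of light, from 3 *msh1* memory plants (replicates 1, 2 and 3) and 2 wild type plants (replicates 2 and 3), all of ecotype Columbia-0 and all crosslinked with formaldehyde. The memory line descends from plants in which a transgene silenced *MSH1*, a nuclear gene for an organelle protein, and itself no longer carries that transgene. Decrossed pools of 3 plants per genotype have no list and were not analysed here.

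Each of the memory plants was paired with both wild type controls, and a gene was listed where a peak called in that contrast lay in it or within 2 kb. The value of a gene in a list is therefore its presence, with no peak position, height or read count. The rows of each list run in 3 blocks per chromosome, the first with plus-strand members only, the second with minus-strand members only and the third with both strands, and the files do not say what the blocks mean, so they were not used. Depth and peak threshold are not given in the sources used here. The wild type plants appear under the codes C2 and C3, and the labels do not say which replicate each code is. Every list sets 1 memory library against 1 wild type library and lists share libraries, so no test between genotypes exists for a gene, and absence from a list does not show closed chromatin. The labelled tissue could not be checked against markers, because the lists hold no expression levels.

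Transcription factors bind short DNA words near genes and raise or lower their transcription. In plants they fall into large families named for the fold that touches DNA, among them WRKY factors of defence, NAC factors of ageing and cell wall building, MADS-box factors of flowering, homeobox factors of meristems and leaf polarity, bHLH and bZIP factors that read the G-box in light and stress responses, and MYB factors of cell fate and metabolism. Members of 1 family often bind nearly the same word, so such genes are told apart largely by where and when each is itself transcribed.

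All 21 members held in every list are named first, since they recurred in each plant and against each control. The homeobox genes were *ATHB-23*, *KNAT1*, *HAT1* and *HAT2*. *KNAT1* encodes a knotted-like protein that keeps meristem cells undifferentiated, *HAT1* and *HAT2* encode class II homeodomain-leucine zipper proteins, a class that acts in shade avoidance, and *ATHB-23* encodes a class I protein of the same kind. The bZIP genes were *BZIP60*, which acts in the unfolded protein response of the endoplasmic reticulum, and *TGA2*, a partner of NPR1 in salicylic acid defence. The bHLH genes were *HBI1*, a promoter of cell elongation given as bHLH64 in the lists, and *BHLH117*. *PIF7*, the phytochrome-interacting factor of shade responses, and *PRE6*, a small helix-loop-helix protein without a basic region, are relatives of these but stand among the other factors because their descriptions name no fold. The GATA genes were *GATA17* and *GATA3*, the MYB genes *PHL6*, *MYB120* and the Myb/SANT-like AT3G32904, and the NAC gene *NAC082*, which acts in the response to ribosomal stress. *TCP19* was the TCP gene of this set. AT1G42710, AT2G05160 and AT5G46910 were its zinc finger genes, the last also with a jumonji domain, a fold common in histone demethylases, and AT1G23995 was described only as a transcription factor.

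Upstream sequence is shown for 5 of these 21 genes to give the DNA on which a nearby peak could lie and the words that bHLH, bZIP and WRKY factors read. Each run is the 250 bases before the gene's annotated start, from RefSeq TAIR10.1, 5′ to 3′ on the gene's strand, and overlaps no neighbouring gene. The runs were chosen for their motifs after these were seen, as all 3 of the 21 windows with a G-box and 2 more of the 11 with a W-box core (AT2G05160 also holds a W-box core, left in lower case). Capitals mark the G-box CACGTG in the first 3 runs and the W-box core TTGAC, here also as its reverse complement GTCAA, in the last 2.
*BHLH117*, chr3:7784470-7784719, minus strand: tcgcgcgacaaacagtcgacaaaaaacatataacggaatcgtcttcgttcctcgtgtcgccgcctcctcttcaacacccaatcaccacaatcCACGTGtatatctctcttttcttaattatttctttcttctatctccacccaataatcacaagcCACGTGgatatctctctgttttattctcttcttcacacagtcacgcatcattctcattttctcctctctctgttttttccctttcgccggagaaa
*BZIP60*, chr1:16137464-16137713, minus strand: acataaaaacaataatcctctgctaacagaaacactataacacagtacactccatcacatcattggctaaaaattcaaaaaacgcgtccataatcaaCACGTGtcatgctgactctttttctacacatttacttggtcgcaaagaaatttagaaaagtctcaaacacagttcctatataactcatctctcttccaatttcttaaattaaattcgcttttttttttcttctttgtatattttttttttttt
AT2G05160, chr2:1862065-1862314, minus strand: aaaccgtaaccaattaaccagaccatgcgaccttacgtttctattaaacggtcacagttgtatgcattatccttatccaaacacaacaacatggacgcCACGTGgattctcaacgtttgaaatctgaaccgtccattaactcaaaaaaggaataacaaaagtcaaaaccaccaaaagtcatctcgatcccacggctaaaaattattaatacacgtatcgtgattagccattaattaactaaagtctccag
*PIF7*, chr5:24640766-24641015, minus strand: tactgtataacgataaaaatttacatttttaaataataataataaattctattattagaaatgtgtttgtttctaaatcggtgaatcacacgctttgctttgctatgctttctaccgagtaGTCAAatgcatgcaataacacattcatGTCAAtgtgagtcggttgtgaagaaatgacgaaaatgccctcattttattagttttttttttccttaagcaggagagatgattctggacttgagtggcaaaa
*KNAT1*, chr4:5151160-5151409, minus strand: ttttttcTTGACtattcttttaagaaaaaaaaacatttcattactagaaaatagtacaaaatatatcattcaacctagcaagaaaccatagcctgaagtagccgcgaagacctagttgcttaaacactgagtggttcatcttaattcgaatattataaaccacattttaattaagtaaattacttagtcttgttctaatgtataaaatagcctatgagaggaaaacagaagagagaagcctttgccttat

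The *BHLH117* run holds 2 G-boxes, which begin 158 and 95 bases before the gene. The *BZIP60* and AT2G05160 runs hold 1 each, at 153 and at 152 bases. *PIF7* has its W-box cores at 129 and 102 bases and *KNAT1* has its own at 243 bases. These matches describe the letters in a window and name no bound site, since the lists do not say where the peaks lay.

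Over all windows of this length, searched on both strands, the G-box had about the same share among members as among all genes. It stood in 3 of the 21 windows of genes in every list (14.3%), in 7 of the 101 members (6.93%) and in 6.49% of all genes. The W-box core TTGAC stood in 52.4% of those 21 windows, in 52.5% of the member windows and in 44.9% of all. The TGA core TGACG, which shares letters with TTGAC where both run together, was found in 15.8% of members and 18.6% of all genes. The GATA core AGATAA was found in 23.8% of members and 25.5% of all genes, the site II word TGGGCC of TCP factors in 8.91% and 13.7%, and the homeodomain-zipper word CAATNATTG in 0.99% and 0.918%.

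Members were spread over the 6 lists much as the lists themselves differ in length. Against C2, plants 1, 2 and 3 had 73, 58 and 51 listed members, where 5.86%, 4.72% and 4.42% of all protein-coding genes were listed. Against C3, plants 1, 2 and 3 had 59, 41 and 40, where 4.76%, 3.84% and 3.55% of all genes were listed. Members made up between 3.89% and 4.54% of a list. Plant 1 had the most members against either control. The list against C2 held 1.24, 1.41 and 1.27 times as many members as the list against C3 in plants 1, 2 and 3, while the whole lists were 1.23, 1.23 and 1.25 times as long.

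**Figure D1:**
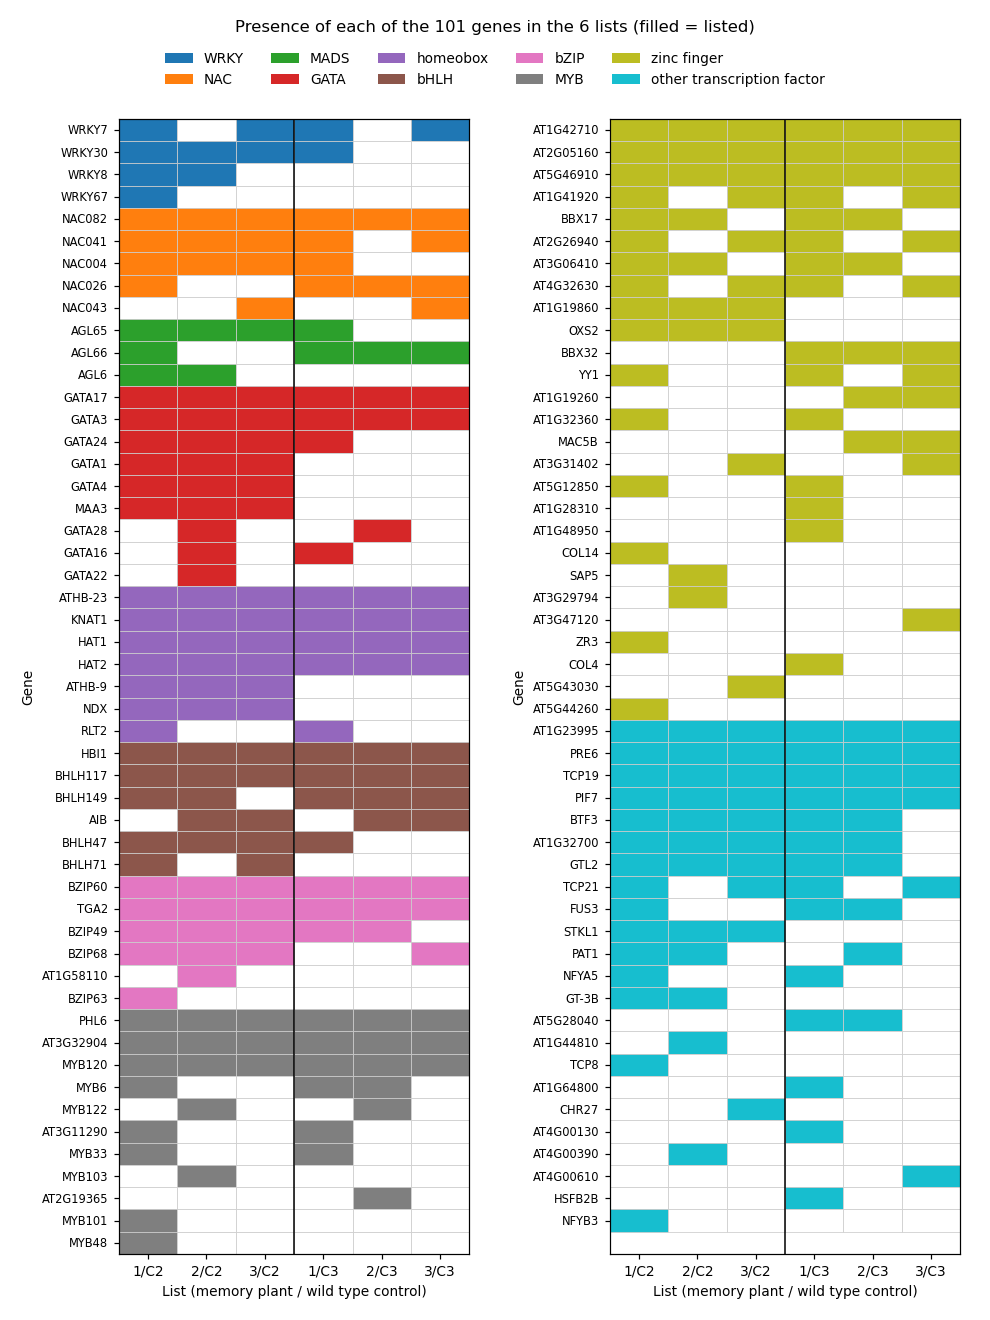
Presence of each of the 101 members (vertical axis, grouped and coloured by family) in the 6 lists (horizontal axis, memory plant / wild type control, with C2 left of the black line and C3 right of it), a filled cell meaning that the gene was listed. The 21 full rows are the genes in all 6 lists, and 27 rows have a single filled cell.

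In these counts, recurrence was slightly higher for the members than for listed genes at large, which include them. Of the members, 21 (20.8%) were in all 6 lists, against 426 (16.4%) of all 2600 listed genes, which is 1.55% of all protein-coding genes. At the other end 27 members (26.7%) and 813 listed genes (31.3%) were in a single list. Between these, 18 members were in 2 lists, 13 in 3, 16 in 4 and 6 in 5. The mean number of lists was 3.19 for members and 2.85 for the other listed genes. Because the lists share libraries, these shares are given as a description, and a difference of the members from listed genes at large was not tested.

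**Figure D2:**
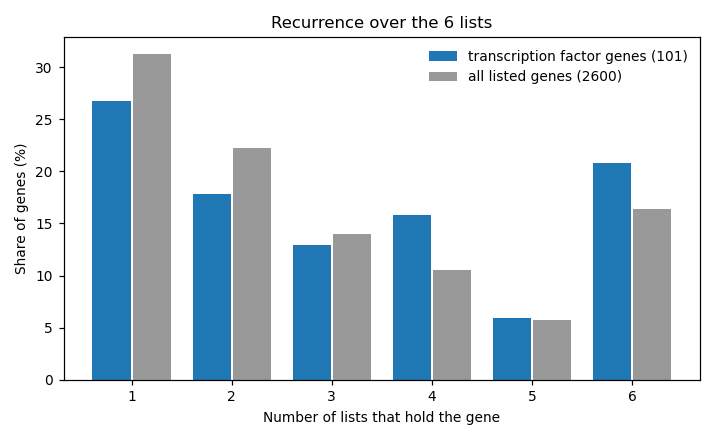
Share of genes (%, vertical axis) by the number of lists that hold them (horizontal axis), for the 101 transcription factor genes and, beside them, all 2600 listed genes. Members stood at 20.8% against 16.4% for 6 lists and at 26.7% against 31.3% for 1 list.

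Counting a plant where at least 1 of its lists held the gene, 44 members (43.6%) were listed for all 3 memory plants, 20 (19.8%) for a pair of plants and 37 (36.6%) for 1 plant, against 37.2%, 21.5% and 41.3% of all listed genes. Those of 1 plant were 21 for plant 1, 10 for plant 2 and 6 for plant 3 (20.8%, 9.9% and 5.94% of members), against 22%, 11.4% and 7.88% of all listed genes. By control, 58 members (57.4%) were listed against both, 30 (29.7%) against C2 only and 13 (12.9%) against C3 only, and the same shares of all listed genes were 49.7%, 31.2% and 19.1%. Lists without any common library shared between 25 and 36 members, which was 43.1% to 80.5% of the members of a list, and 39.6% to 65.4% of a list over all listed genes.

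As sorted by wording, homeobox genes had the highest mean number of lists, 4.57, with bHLH genes next at 4.5. The order rests on the sorting, since *PIF7* and *PRE6*, relatives of the bHLH genes in 6 lists each, stand among the other factors. Of 7 homeobox members, 4 were in every list (57.1%, against 16.4% of all listed genes). *ATHB-9*, also called *PHAVOLUTA* and a class III gene of the upper leaf side, and *NDX*, whose protein acts at the antisense promoter of *FLC*, were listed for all 3 plants against C2 and for 0 against C3. *RLT2*, a partner of ISWI chromatin remodellers, was listed for plant 1 against both controls and for no other plant. All 7 homeobox members were thus in the plant 1 list against C2, and 4 were in the lists of plants 2 and 3 against C3.

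Of the genes sorted as GATA, 4 were listed against C2 only, the helicase *MAA3* among them, and 0 against C3 only. Of all listed genes, 31.2% were listed against C2 only and 19.1% against C3 only. With so few genes, the counts do not set the family apart from those shares. The family had 9 members, of which 6, 9 and 6 were listed against C2 in plants 1, 2 and 3, and 4, 3 and 2 against C3. Only *GATA17* and *GATA3* were in every list. *GATA1* and *GATA4* were listed for all 3 plants against C2 and for 0 against C3, and *GATA24*, a ZIM-like GATA factor, for all 3 against C2 and for plant 1 against C3. *GATA28*, its close relative, was listed for plant 2 against both controls. *GATA16* was listed for plant 2 against C2 and plant 1 against C3. *GATA22*, which promotes chlorophyll synthesis and chloroplast growth, was in the plant 2 list against C2 alone. The ninth member, *MAA3*, matched through the name Magatama of a helicase and is no GATA factor. It had the same lists as *GATA1*.

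The bHLH and bZIP families each had 6 members, 2 of them in every list. The 6 bHLH members averaged 4.5 lists. *BHLH149* lacked only the plant 3 list against C2. *AIB*, named for its induction by abscisic acid and kept because its description spells this ABA, was listed for plants 2 and 3 against both controls. *BHLH47*, the iron deficiency regulator also called *POPEYE*, was listed for all 3 plants against C2 and for plant 1 against C3, and *BHLH71* for plants 1 and 3 against C2. Among bZIP genes, *BZIP49*, which encodes a membrane-anchored relative of the endoplasmic reticulum stress factors, lacked only the plant 3 list against C3. *BZIP68* was listed for all 3 plants against C2 and for plant 3 against C3. *BZIP63*, a factor of the low energy response, was in the plant 1 list against C2, and AT1G58110 was in the plant 2 list against C2.

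NAC members averaged 4.2 lists. None of the 5 was in a single list, where 31.3% of all listed genes were, and so few genes do not stand apart from that share. *NAC041* was listed for all 3 plants against C2 and for plants 1 and 3 against C3. *NAC004* had all 3 plants against C2 and plant 1 against C3. *NAC026*, a gene of xylem vessel formation, had plant 1 against C2 and all 3 plants against C3. *NAC043*, or *NST1*, which drives secondary wall thickening, was listed for plant 3 against both controls and for no other plant.

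Of the 4 WRKY members and the 3 MADS members, none was in every list, where 16.4% of all listed genes were. With so few genes, a count of 0 does not set either family apart from that share. By RefSeq wording, 7 MADS genes were listed and 1 of them was in every list. *WRKY7* was listed for plants 1 and 3 against both controls. *WRKY30* had all 3 plants against C2 and plant 1 against C3, *WRKY8* plants 1 and 2 against C2, and *WRKY67* plant 1 against C2. None of these 4 WRKY members was in the plant 2 list against C3, which held 1053 of the 2600 listed genes. Among MADS genes, *AGL65* and *AGL66*, which act together in pollen, were both listed for plant 1 against both controls. For plants 2 and 3, *AGL65* was listed against C2 only and *AGL66* against C3 only. *AGL6*, a floral gene, was listed for plants 1 and 2 against C2.

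MYB members split into 3 genes in all 6 lists and 8 genes in 3 lists or fewer. *PHL6*, a relative of the phosphate starvation regulator PHR1, *MYB120*, which acts in the pollen tube, and AT3G32904 were in all 6. *MYB6*, described as a repressor, was listed for plant 1 against both controls and for plant 2 against C3. *MYB33*, a GAMYB-like target of miR159 as *MYB120* is, and AT3G11290 were listed for plant 1 against both controls and for no other plant. *MYB101*, also a GAMYB-like pollen tube gene, was in the plant 1 list against C2 alone, as was *MYB48*. *MYB122*, a regulator of indolic glucosinolates, was listed for plant 2 against both controls. *MYB103*, a gene of lignin formation, was in the plant 2 list against C2, and AT2G19365 in the plant 2 list against C3.

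Zinc finger genes were the largest family and had the lowest mean number of lists. Of 27 members, 3 were in every list (11.1%, against 16.4% of all listed genes) and 10 in a single list, with a mean of 2.59. By wording, 9 were CCCH genes (1 in every list), 4 were CONSTANS-LIKE or B-box genes (0 in every list) and 3 were general transcription factor 2-related genes (1 in every list). *BBX32*, a B-box gene that dampens light responses, was the 1 member listed for all 3 plants against C3 and for 0 against C2. The reverse, all 3 plants against C2 and 0 against C3, held for *OXS2*, a stress-responsive CCCH gene, and for AT1G19860. *BBX17* and AT3G06410 were listed for plants 1 and 2 against both controls, and AT1G41920, AT2G26940 and AT4G32630 for plants 1 and 3 against both. *YY1* had plant 1 against both controls and plant 3 against C3. AT1G32360 and AT5G12850 were listed for plant 1 against both controls, AT3G31402 for plant 3 against both, and *MAC5B* and AT1G19260 for plants 2 and 3 against C3. In 1 list stood *COL4*, AT1G28310 and AT1G48950 (plant 1 against C3), *COL14*, *ZR3* and AT5G44260 (plant 1 against C2), *SAP5* and AT3G29794 (plant 2 against C2), AT5G43030 (plant 3 against C2) and AT3G47120 (plant 3 against C3).

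The other 23 factors averaged 2.91 lists, with *PIF7*, *PRE6*, *TCP19* and AT1G23995 in every list. *BTF3*, the PLATZ gene AT1G32700 and the trihelix gene *GTL2* lacked only the plant 3 list against C3. *TCP21*, which acts on the clock gene *CCA1*, was listed for plants 1 and 3 against both controls. *FUS3*, a master regulator of seed maturation, was listed for plant 1 against both controls and for plant 2 against C3. *PAT1*, a gene of phytochrome A signalling, had plants 1 and 2 against C2 and plant 2 against C3. *STKL1* was listed for all 3 plants against C2 and 0 against C3, *NFYA5*, a drought response gene, for plant 1 against both controls, *GT-3B* for plants 1 and 2 against C2, and AT5G28040 for plants 1 and 2 against C3. The remaining 9 were in 1 list each: *TCP8* and *NFYB3* (plant 1 against C2), AT1G44810 and AT4G00390 (plant 2 against C2), *CHR27* (plant 3 against C2), the heat stress gene *HSFB2B*, AT1G64800 and AT4G00130 (plant 1 against C3) and AT4G00610 (plant 3 against C3). None of the 6 genes worded as a probable transcription factor or a storekeeper-like one was in every list. Of all listed genes 16.4% were, and so few genes do not stand apart from that share.

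**Figure D3:**
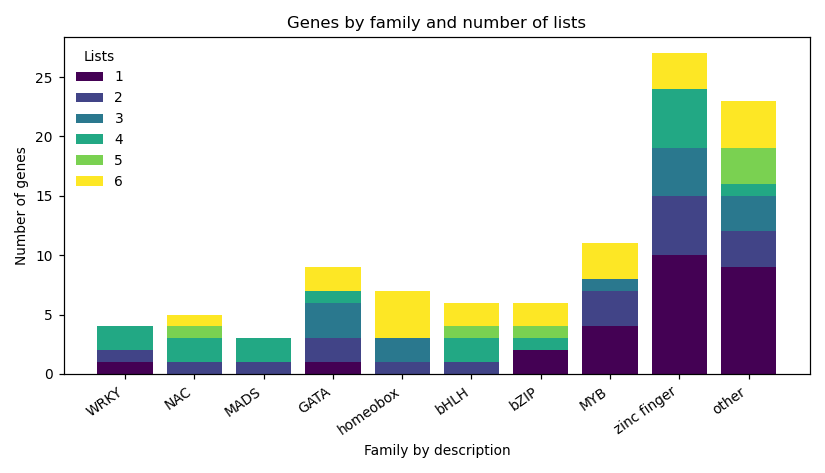
Number of members (vertical axis) in each family (horizontal axis), stacked by the number of lists that hold them. Homeobox genes had 4 of 7 members in all 6 lists, and zinc finger genes 3 of 27.

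In all, 8 members were listed for each plant against C2 and for 0 plants against C3 (7.92%, against 6.04% of all listed genes), and 1 for each plant against C3 and for 0 against C2 (0.99%, against 1.85%). By family, members listed against C2 alone and against C3 alone numbered 4 and 0 for GATA, 2 and 0 for homeobox, 2 and 0 for bZIP, 2 and 0 for WRKY, 1 and 0 for MADS, 1 and 0 for bHLH, 0 and 0 for NAC, 3 and 1 for MYB, 8 and 7 for zinc finger genes and 7 and 5 for the other factors. Over all listed genes, 31.2% were listed against C2 alone and 19.1% against C3 alone, and the 4 GATA genes include the helicase *MAA3*. With so few genes per family, the counts do not set a family apart from those shares. What the 2 wild type libraries differ in cannot be told apart from these lists. Both lists of 1 plant, and no other list, held 6 members for plant 1, 2 for plant 2 and 2 for plant 3, against 181, 42 and 37 listed genes of the same pattern. Both lists of plants 1 and 3, and no other, held 5 members (4.95%), against 38 listed genes (1.46%). The same pattern for plants 1 and 2 held 2 members (1.98%, against 1.38%), and for plants 2 and 3 it held 1 (0.99%, against 0.846%).

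The families were then set against their size in the genome by reading the same keywords in RefSeq product names, which worded 1416 protein-coding genes as transcription factors. Of these, 117 were listed at least once (8.26%), where 9.47% of all protein-coding genes were, and 26 were in every list (1.84%), where 1.55% of all genes were. The GATA wording stood highest, with 9 of 44 genes listed (20.5%). Those 44 also hold genes whose names only contain the letters. Of the 29 numbered GATA factors 8 were listed (27.6%), all 8 of them against C2 and 5 against C3. This count was made after the values were seen. Of all listed genes, 49.7% were listed against both controls, 31.2% against C2 only and 19.1% against C3 only. With 8 genes, the split by control does not set GATA factors apart from those shares. The bZIP share was 10.7% of 75 genes, NAC 9.18% of 98, zinc finger 8.92% of 370 and MYB 8.04% of 199. Homeobox (6.98% of 86), WRKY (6.58% of 76), bHLH (5.88% of 136) and MADS (5.6% of 125) stood lowest, next to 7.73% of 207 other factors. The homeobox family, with its low share of listed genes, had 4.65% of its genes in every list, close to the 4.55% of the GATA wording. In the other families between 0% (WRKY) and 2.67% (bZIP) of the genes were in every list.

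**Figure D4:**
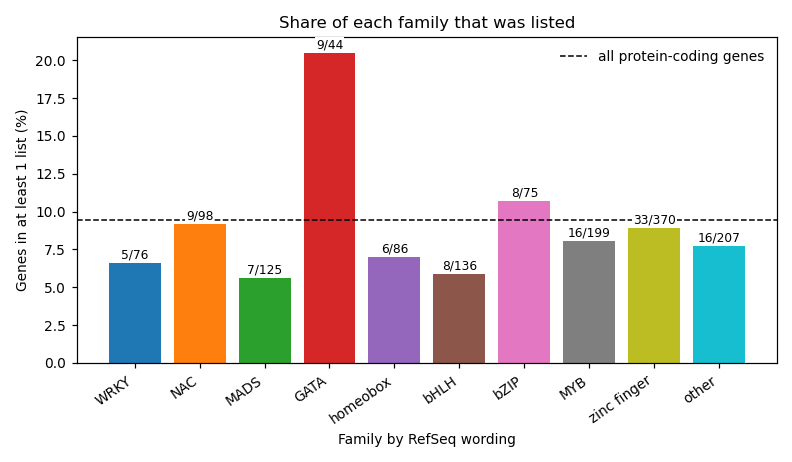
Share of each family's genes in the genome, by RefSeq wording, that were in at least 1 list (%, vertical axis, families on the horizontal axis, listed genes over genes above each bar), with the dashed line at the 9.47% of all protein-coding genes. GATA stood at 20.5% and the other families between 5.6% and 10.7%.

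A fixed list of 100 well known transcription factor symbols, of which 94 matched 1 locus each, gave a view by process. Of the 94, 9 were listed (9.57%), close to the 9.47% of all protein-coding genes. Of these 9, 5 were in every list, and the other 85 symbols were in 0 lists. The circadian clock genes (0 of 6), the epidermis and trichome genes (0 of 11), the defence and ageing genes (0 of 15) and the secondary metabolism genes (0 of 6) had no listing. With so few genes per process, a count of 0 does not set a process apart from the share of all genes. Of the meristem and leaf polarity genes, 3 of 14 were listed, namely *KNAT1*, *ATHB-9* and the organ boundary gene *CUC1*. Of the 4 chloroplast genes 2 were listed, *GATA22* in 1 list and *GLK1*, an activator of photosynthesis genes, in all 6. *PIF7* was the 1 of 9 light genes with a listing, *BZIP60* and *TGA2* the 2 of 13 stress genes, and *AP3*, a petal and stamen gene listed for plant 2 against both controls, the 1 of 16 flowering genes. *CUC1* was listed for plant 3 against both controls and for plant 2 against C3. *AP3*, *CUC1* and *GLK1* are not members, because their descriptions in the lists use none of the keywords.

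The members lay in gene surroundings with more space than those of listed genes at large. The space to the next protein-coding gene, summed over both sides, had a median of 3658 bp for the 101 members and 2628 bp for the other listed genes. Transcription factor genes in 0 lists, by RefSeq wording, had a median of 3192 bp, and all genes in 0 lists 1790 bp. Thus a wide space was common to transcription factor genes with and without a listing. It lay mostly upstream, with a median of 2595 bp for members and 1333 bp for the other listed genes, against 823 and 477 bp downstream. The part that space has in a gene being listed was not tested.

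Among the members, space did not follow the number of lists. Its median was 3658 bp for the 21 members in every list and 3749 bp for the 27 in a single list. Among the other listed genes it was 3591 bp for genes in every list and 2404 bp for genes in a single list. The range among the 21 ran from 92 bp (*TCP19*) to 57199 bp (AT3G32904), and over all members from 48 bp (*BBX32*) to 118678 bp (*YY1*). Where the space is as small as at *TCP19*, or at *TGA2* with 227 bp, a peak within 2 kb can lie in a neighbouring gene.

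**Figure D5:**
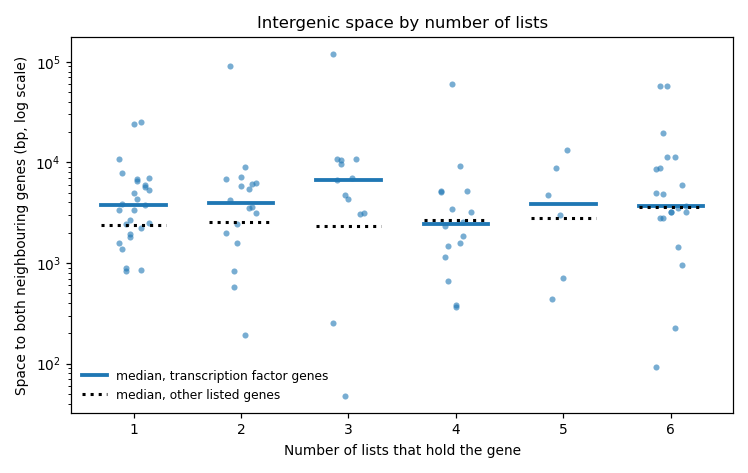
Summed space to the neighbours on both sides (bp, log scale, vertical axis) by number of lists (horizontal axis), with a point for each member, a solid line at the members' median and a dotted line at the median of other listed genes. Members stood at 3749 bp for 1 list and 3658 bp for 6 lists, and the other listed genes at 2404 and 3591 bp.

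Gene length and repeated sequence were also compared. Members in every list had a median length of 1737 bp and all members 2095 bp, against 2258 bp for the other listed genes. Length did not follow the number of lists, with 2397 bp for members in 2 to 5 lists and 1635 bp for those in 1 list. Transcription factor genes in 0 lists, by RefSeq wording, had a median length of 1979 bp. The share of 31-base words found more than once in the genome, over the gene and 2 kb on both sides, had a median of 0.562% for members in every list, against 3.25% for the other genes in every list. Over all members it was 0.825%, against 1.32% for the other listed genes. Genes in 0 lists stood lower, at 0.228% for transcription factor genes by RefSeq wording and 0.378% for all genes. The share was above 10% at 13 of 101 members, 494 of 2499 other listed genes and 2888 of all 27444 genes. Among the 21 members in every list, it was above 10% at 2, AT1G23995 (13.4%) and *BHLH117* (10.8%). The highest value was 40.4%, at AT2G19365. Reads of repeated sequence can be placed at several loci, and the part this has in the lists was not tested.

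Neighbouring genes in the same list can share a peak. Of the members, 18 of 101 (17.8%) had an adjacent gene in a common list at least once, against 643 of 2499 (25.7%) other listed genes. *PRE6* and *ATHB-23* are neighbours on chromosome 1, 2993 bp apart, and both were in every list. *PHL6* has a neighbour 14 bp away, AT3G13030, that was in 4 lists. *TCP8* and AT1G58110 are also neighbours, and no list held both. By chromosome, 30 members lay on chromosome 1, 13 on 2, 20 on 3, 16 on 4 and 22 on 5. Chromosome 1 thus held 29.7% of members, 24.3% of listed genes and 26.1% of protein-coding genes, and chromosome 2 held 12.9%, 17.9% and 15.7%.

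The wording of the rule set its limits. Factors tied to a hormone stayed in where their description held none of the words left out, as with *TGA2* of salicylic acid defence and *AIB*. Of the 101 members, 83 were also worded as transcription factors by RefSeq and 18 were not, and 34 further listed genes were so worded by RefSeq alone. Family counts moved with the wording. Listed genes and those in every list were 7 and 1 for MADS, 9 and 1 for NAC and 16 and 5 for MYB by RefSeq. By description they were 3 and 0 for MADS, 5 and 1 for NAC and 11 and 3 for MYB. By their description or by general knowledge of the protein, 8 members were set aside as having another function. Among them were the helicase *MAA3*, the nascent polypeptide factor *BTF3* and the splicing-associated protein gene *MAC5B*. Without the 8, 93 members remained. None of the 8 was in every list, so the count of 21 could not change. It does not show that all 21 are transcription factors, since AT5G46910, with its jumonji domain, was kept.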

How the data were processed

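FAIRE-seq libraries of 3 crosslinked *msh1* memory plants and 2 crosslinked wild type plants underlie the 6 deposited lists, 1 for each memory plant against each wild type control. The authors deposited, per list, a locus, a symbol and a description for each gene within 2 kb of a peak, so the value used is presence or absence of a gene and not a count, ratio or signal. The submitters' processing notes name Trim Galore 0.4.1, cutadapt 1.9.1, Bowtie2 and build TAIR10. The peak caller, its threshold and the depth are not given in the sources used here. A stricter threshold could shorten any list.

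Lists were tied to memory plants by the sample descriptions and to controls by the codes C2 and C3. Loci were matched to RefSeq TAIR10.1 (0 without a match), which gave positions, neighbours, 31-base repeated words and 250 upstream bases. A member's family was the first of 10 keyword classes that matched. Python 3.11.15 with numpy 2.4.6 and matplotlib 3.10.9 was used, and the rule and counts were tested on simulated data. No test was run, as each list is 1 library against 1 library. Nothing says that plants of 1 genotype came from separate cultures.

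Named were members in all 6 lists, members of 1 control or 1 plant, and listed genes of the fixed symbol list. The remaining members were named after their values were seen, so that each is accounted for. Members and lists were chosen with earlier results of these data known. Alternatives were other spellings and readings of the rule, 1 plant or control left out, and neighbours counted once.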

Additional observations from a re-analysis of the deposited data

How the results depend on the processing

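Of 85 recomputed counts, 82 stayed within 1.5 times the reported value. Many of these could not move, so the 82 are no measure of robustness. Reading the exclusion words in the whole description, or RING in any case, changed 0 members. Leaving out zinc finger cannot touch the other families, and 50 of the 85 were counts of single families. The zinc finger change was also counted under 2 results. Members in all lists numbered 40 when only the 3 lists against C2 were used and 25 with C3 alone, in place of 21 over 6 lists, and fewer lists make that criterion easier to meet. Without genes that match through zinc finger alone, the zinc finger family held 4 genes in place of 27, by construction. Leaving out each memory plant in turn gave 22 to 28 members in all remaining lists and 80 to 95 in at least 1 list. Other spellings and readings of the rule gave 78 to 104 members, with 20 to 22 in all lists. Leaving out the 8 members set aside for another function, an alternative chosen after seeing the data, gave 93 and 21. None of the 8 was in all lists, so the 21 could not move. No paired analysis was possible because every list already sets 1 memory plant against 1 wild type plant and no test was run. Depth is unknown, so a gene missing from a list may have been below the detection of that library.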
